A study of Mus musculus with 6 samples.

Results

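The Bmp ligands Bmp2, Bmp4, Bmp6 and Bmp7, the receptors Bmpr1a and Bmpr2, and the signal transducers Smad1, Smad4, Smad5 and Smad9 were followed in sorted bulge stem cells (SCs) of the hair follicle. The 10 genes were given by name and were found by matching the Ensembl identifiers of the deposited table to mouse symbols. All 10 were among the 43274 genes listed, and all 10 passed the filter applied before testing, a mean of 10 or more normalized counts.

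The study compared bulge SCs with and without integrin-linked kinase (ILK), an adaptor protein that couples integrins to the actin cytoskeleton, by RNA sequencing of 3 control and 3 ILK-K5 libraries. Control mice, labelled ILK +/-, had 1 floxed Ilk allele. ILK-K5 mice, labelled ILK -/-, had both alleles floxed. Mice of both genotypes carried the K5-Cre transgene, in which the keratin 5 promoter drives Cre recombinase in the epidermis and hair follicle epithelium, so the controls were made to lose 1 copy of Ilk in these cells and Cre was present in both groups. The mice were 21 days old, and the cells were sorted from epidermis by FACS for CD34 and high α6 integrin. Controls were littermates of the ILK-K5 mice, on a mixed C57Bl6-129/Sv background. The labels do not say whether each library came from a separate mouse, so p-values measure the spread between these libraries, which may be technical.

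Reads on genes numbered 8228019 to 11969072 in a library, and 1 read was worth between 0.726 and 1.52 normalized counts. Mitochondrial genes took 11.5% to 27.6% of the reads in the controls and 14.4% to 24.2% in ILK-K5. Ilk did not serve as a check of genotype, because 89.7% of its exon bases also lie in exons of Taf10 or Rrp8 on the opposite strand, and its log2 fold change between ILK-K5 and control was 0.30 (standard error 0.64, adjusted p = 0.933, limma with Benjamini-Hochberg adjustment). Krt15, a keratin of bulge SCs, was present in every library, at 28999 to 97406 normalized counts in the controls and 10084 to 37668 in ILK-K5. Cd34, the surface marker used in the sort, had 2009, 947 and 1960 normalized counts in the controls and 296, 560 and 433 in the ILK-K5 libraries. On the log2 scale it fell by 1.90 (adjusted p = 0.0239, limma). Markers of other cell types also differed. The summed level of 15 macrophage markers was 366 to 441 normalized counts in the controls and 17079 to 23079 in ILK-K5, with all 15 called higher where 2.93% of all genes tested were, and that of 7 Langerhans and dendritic cell markers was 507 to 1613 and 26490 to 39685, with 5 called higher. Of these 7, edgeR called 3 higher and DESeq2 6, where 2.58% and 3.7% of all genes were. The 2 that limma did not call were Cd207 (adjusted p = 0.148) and Flt3 (adjusted p = 0.750). The 8 basal keratinocyte markers summed to 73159 to 113664 normalized counts in the controls and 71625 to 84151 in ILK-K5, with 0 called by limma, edgeR or DESeq2 and 1 at an unadjusted p under 0.05. Differentiated keratinocyte markers summed to 5041 to 30882 and 4825 to 8256. Of 8 tested, 1 was called lower by limma, 1 by edgeR and 3 by DESeq2, where 0.599%, 0.532% and 1.26% of all genes were. An unadjusted p under 0.05 in limma was reached by 4 of these 8, against 12.3% of all genes. Their median log2 fold change was -1.35, with 6 below 0 and 2 above. Where a value is given for every library, libraries 1, 2 and 3 of a genotype stand in this order. In such bulk samples fewer cells of a type and less RNA per cell cannot be told apart.

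Bone morphogenetic proteins (Bmps) are secreted dimers that bind complexes of type I and type II serine/threonine kinase receptors. The activated type I receptor phosphorylates the receptor Smads Smad1, Smad5 and Smad9 (also called Smad8), which join the common mediator Smad4, enter the nucleus and act on targets such as the Id genes. In the hair follicle Bmp signals are known to hold bulge SCs in quiescence, and both the epithelium and the surrounding dermis can produce ligands.

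In the ILK-K5 libraries Smad9 fell, and it was the only gene of the 10 that passed the test. Its mean level was 263 ± 73.6 normalized counts in the controls and 30.6 ± 16.9 in the ILK-K5 libraries (SD, n = 3 each). The ligands Bmp2 and Bmp4 were lower in every ILK-K5 library than in every control library but did not pass the adjusted threshold. Receptors, Smad1 and Smad5 overlapped between the genotypes, and Smad4 was slightly higher in each ILK-K5 library without passing the test. At an adjusted p of at most 0.05 from limma, 1 of the 10 genes was called, in the lower direction, where 0.599% of all 16368 genes tested were called lower and 3.53% in either direction. An unadjusted p under 0.05 was reached by 3 of the 10, namely Smad9, Bmp2 and Bmp4, against 12.3% of all genes tested. The libraries of the genotypes did not overlap for 4 of the 10, against 17.9% of all genes tested. Of these 4, Bmp2, Bmp4 and Smad9 lay below in ILK-K5, as did 6.95% of all genes, and Smad4 lay above, as did 10.9%. The median log2 fold change of the 10 genes was -0.06, with 5 above and 5 below 0, beside a median of 0.01 over all genes tested.

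Levels can be compared between genes only per length of transcript, and FPKM (fragments normalized to transcript length and library size) was used for this. The type I receptor Bmpr1a was the most abundant of the 10 genes, with a mean of 71.2 FPKM over the 6 libraries, higher than 96.2% of the genes tested. The type II receptor Bmpr2 followed with 39.5 FPKM. Bmpr1a exceeded Bmpr2 in 6 of 6 libraries, Bmpr2 exceeded Smad5 in 6 of 6, and neither pair had overlapping ranges. Next came Smad5 with a mean of 13.7, Smad4 with 13.2, Smad1 with 12.5 and Bmp7 with 11.9 FPKM, the ranges of which overlapped from each gene to the next. Bmp2 followed with 5.61, Smad9 with 2.81, Bmp4 with 1.97 and Bmp6 with 0.503 FPKM. Among these too the ranges of neighbours overlapped, Bmp7 and Bmp2 included, although Bmp7 was above Bmp2 in 5 of 6 libraries. By genotype, Smad9 had a mean of 5.03 FPKM in control and 0.584 in ILK-K5, and Bmp4 3.34 and 0.599. Bmp6, the least abundant of the 10, was above only 7.24% of the genes tested.

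**Figure D1:**
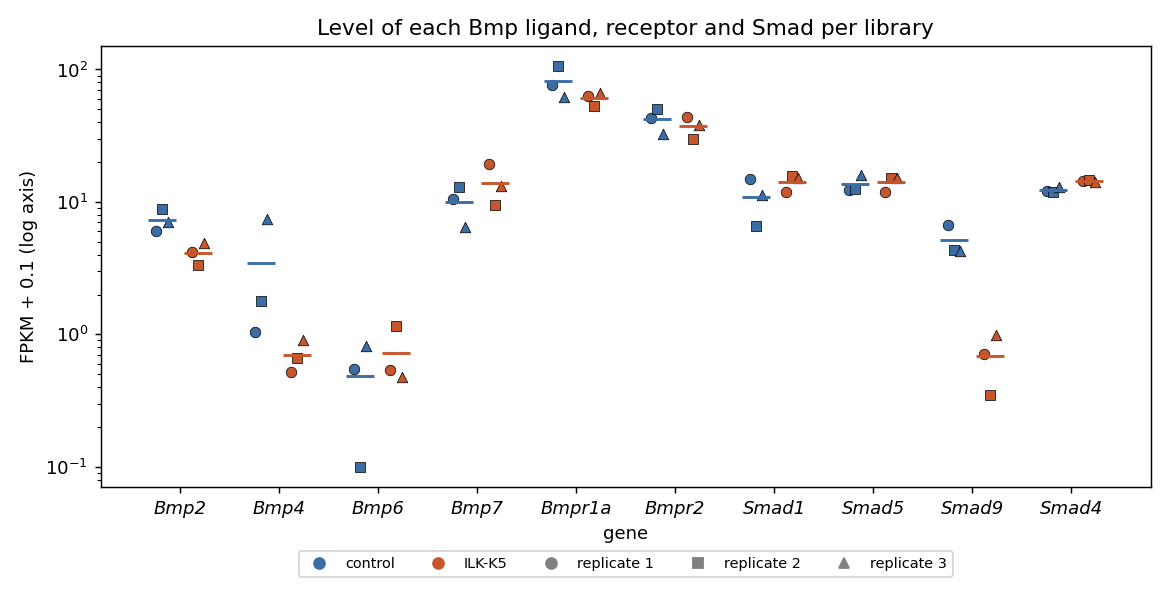
Level of the 10 Bmp genes, as FPKM plus 0.1 on a log axis, in the 3 control and 3 ILK-K5 libraries. Each point is 1 library, its shape gives the replicate and its colour the genotype, and each short line is the mean of a genotype. The ILK-K5 points of Smad9 are at 0.250 to 0.893 FPKM and its control points at 4.17 to 6.65, whereas the points of the receptors and of Smad5 overlap.

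Bmp2, a ligand of the same subgroup as Bmp4, spans positions 133552159 to 133562885 of mouse chromosome 2 in GRCm38 (plus strand). Its normalized counts were 205, 301 and 243 in the controls and 141, 112 and 166 in the ILK-K5 libraries. Every ILK-K5 library was thus below every control library. The means were 250 ± 48.6 (SD, n = 3) and 140 ± 26.9 (SD, n = 3), and the log2 fold change on the scale of the normalized count plus 1 was -0.83 (standard error 0.31, 95% interval -1.54 to -0.13). It did not pass the test over all genes (adjusted p = 0.276, limma), nor in edgeR (adjusted p = 0.290) or DESeq2 (adjusted p = 0.273). With replicates 2 and 3 alone the difference was -0.99 (adjusted p = 0.278, limma).

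Bmp4, which dermal cells as well as epithelial cells are known to produce, spans positions 46383520 to 46390669 of chromosome 14 (minus strand). Its normalized counts were 20.3, 36.5 and 160 in the controls and 9.11, 12.3 and 17.5 in the ILK-K5 libraries. Control library 3 stood far above the other controls, and all ILK-K5 libraries lay below the lowest control. Few reads stood behind these values, with 21, 24 and 221 reads in the controls and 8, 16 and 18 in ILK-K5. On the log2 scale the difference was -1.90 (standard error 0.77, 95% interval -3.62 to -0.17, adjusted p = 0.332, limma). DESeq2 on the recovered reads called Bmp4 lower, with a log2 fold change of -2.48 and an adjusted p of 0.0348, in a run that called 1.26% of its 20919 tested genes lower. With edgeR the adjusted p was 0.196. Without control library 3 the log2 fold change from limma was -1.06 (adjusted p = 0.460), and with replicates 2 and 3 alone it was -2.31 (adjusted p = 0.244). Control library 3 also had the highest summed level of differentiated keratinocyte markers, 30882 normalized counts against 5041 and 13592 in the other controls. It had the highest sum of the bulge SC markers too, 110943 against 49003 and 60630. Most of that bulge SC sum in control library 3 was Krt15 alone, so it does not stand for the list as a whole. The part of differentiated keratinocytes and bulge SCs in the level of Bmp4 was not tested. Bmp4 shares 3.96% of its exon bases with another gene, Bmp6 5.74%, Bmpr1a 4.57% and Smad5 1.35%.

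Bmp6, a ligand of another subgroup that it shares with Bmp7, spans positions 38345107 to 38500302 of chromosome 13 (plus strand). It had 10.6, 0 and 16.7 normalized counts in the controls and 10.3, 24.7 and 8.77 in the ILK-K5 libraries, and the genotypes overlapped. The count of 0 in control library 2 allows up to 4.56 normalized counts, the value of 3 reads. Its log2 fold change was 1.26 with a wide 95% interval of -1.28 to 3.80 (adjusted p = 0.798, limma), and without control library 2 it was -0.02. A change in Bmp6 was not detectable at this depth.

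Bmp7, the most abundant of the 4 ligands, spans positions 172868012 to 172940321 of chromosome 2 (minus strand). It had 411, 502 and 247 normalized counts in the controls and 749, 368 and 513 in the ILK-K5 libraries. The ranges overlapped, with ILK-K5 library 2 below control libraries 1 and 2. The log2 fold change of Bmp7 was 0.49 (standard error 0.37, 95% interval -0.34 to 1.32, adjusted p = 0.743, limma), and it lay between 0.20 and 0.74 when single libraries were left out.

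The summed level of the 4 ligands was 17.8, 23.2 and 21.4 FPKM in the controls and 24.04, 14.2 and 19.1 in the ILK-K5 libraries (exact permutation test, two-sided, p = 0.7, adjusted p = 0.8 over 3 sums). The sums overlapped. Within them, Bmp2 made up 34.5% ± 2.62 of the ligand FPKM in control (SD, n = 3) and 21.6% ± 4.18 in ILK-K5 (SD, n = 3), without overlap between the libraries. The share of Bmp7 was 59.0%, 55.3% and 29.5% in the controls and 79.5%, 66.0% and 68.7% in the ILK-K5 libraries, so that every ILK-K5 library was above every control library. Bmp4 took 5.26%, 7.26% and 34.5% in the controls and 1.75%, 3.998% and 4.24% in ILK-K5. For Bmp2, Bmp4 and Bmp7 the exact permutation test gave p = 0.1, the smallest value possible with 3 against 3 libraries, and an adjusted p of 0.129 over the 9 shares and ratios tested. The share of Bmp6 overlapped between the genotypes (p = 0.6, exact permutation test). These shares add up to 100% and are not independent of each other. Without control library 3 the difference was -2.93 percentage points for Bmp4, against -12.3 with all libraries, and 14.3 for Bmp7, against 23.5. Shares within a library do not depend on how the libraries were scaled to each other.

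Bmpr1a, the type I receptor of Bmp2 and Bmp4, spans positions 34410734 to 34503341 of chromosome 14 (minus strand). Its normalized counts were 4764, 6578 and 3833 in the controls and 3899, 3289 and 4081 in the ILK-K5 libraries. Control library 2 was the highest and control library 3 lay among the ILK-K5 libraries. The difference was -0.40 on the log2 scale (standard error 0.29, 95% interval -1.05 to 0.25, adjusted p = 0.729, limma).

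Bmpr2, the type II receptor that phosphorylates the type I receptor in the complex, spans positions 59763400 to 59879014 of chromosome 1 (plus strand). It had 7498, 8816 and 5705 normalized counts in the controls and 7630, 5246 and 6632 in the ILK-K5 libraries, again with overlap. For Bmpr2 the log2 fold change was -0.17 (standard error 0.30, 95% interval -0.85 to 0.51, adjusted p = 0.916, limma). Both intervals include 0, and they leave room for a fall of up to 1.05 on the log2 scale in Bmpr1a and of up to 0.85 in Bmpr2. The summed level of both receptors was 124 ± 31.2 FPKM in control (SD, n = 3) and 97.7 ± 12.8 in ILK-K5 (SD, n = 3; exact permutation test, p = 0.3, adjusted p = 0.8 over 3 sums).

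Smad9 spans positions 54755582 to 54801257 of chromosome 3 (plus strand), and none of its 5368 exon bases overlaps an exon of another gene. It had 348, 224 and 218 normalized counts in the controls and 31.9, 13.1 and 46.8 in the ILK-K5 libraries. The highest ILK-K5 library was far below the lowest control library. These values rest on 361, 147 and 301 reads in the controls and 28, 17 and 48 in ILK-K5. The mean in control was 8.61 times the mean in ILK-K5, and the log2 fold change was -3.20 (standard error 0.50, 95% interval -4.32 to -2.08, adjusted p = 0.00770, limma). The fall also passed in edgeR (adjusted p = 0.0109) and in DESeq2 (adjusted p = 1.08e-07), and in each of the 19 alternatives tried, in which the log2 fold change lay between -3.58 and -2.70. The largest adjusted p was 0.0497, from replicates 2 and 3 alone, where the log2 fold change was -3.10 and 0.434% of all genes were called lower. The labels give a different number to each replicate, shared by both genotypes, and do not state a batch. Setting replicates 2 and 3 apart rests only on the shared last digits of their numbers. With each library scaled to its basal keratinocyte markers instead of all genes, the log2 fold change was -3.22 (adjusted p = 0.00440, limma).

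Smad1, at positions 79338395 to 79399518 of chromosome 8 (minus strand), is one of the other two receptor Smads of the Bmp branch. It had 841, 365 and 635 normalized counts in the controls and 665, 882 and 861 in the ILK-K5 libraries. Control library 1 lay within the ILK-K5 range and the other controls below it. Smad1 gave a log2 fold change of 0.46 (standard error 0.34, 95% interval -0.31 to 1.22, adjusted p = 0.737, limma), which was 0.12 without control library 2 and 0.73 without control library 1.

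Smad5, which relays the same signals, spans positions 56703010 to 56742377 of chromosome 13 (plus strand). It had 880, 902 and 1149 normalized counts in the controls and 850, 1091 and 1091 in the ILK-K5 libraries. The ranges were nearly the same. On the log2 scale Smad5 differed by 0.05 (standard error 0.25, 95% interval -0.52 to 0.62, adjusted p = 0.973, limma). The interval leaves room for a rise of up to 0.62 or a fall of up to 0.52 in Smad5.

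**Figure D2:**
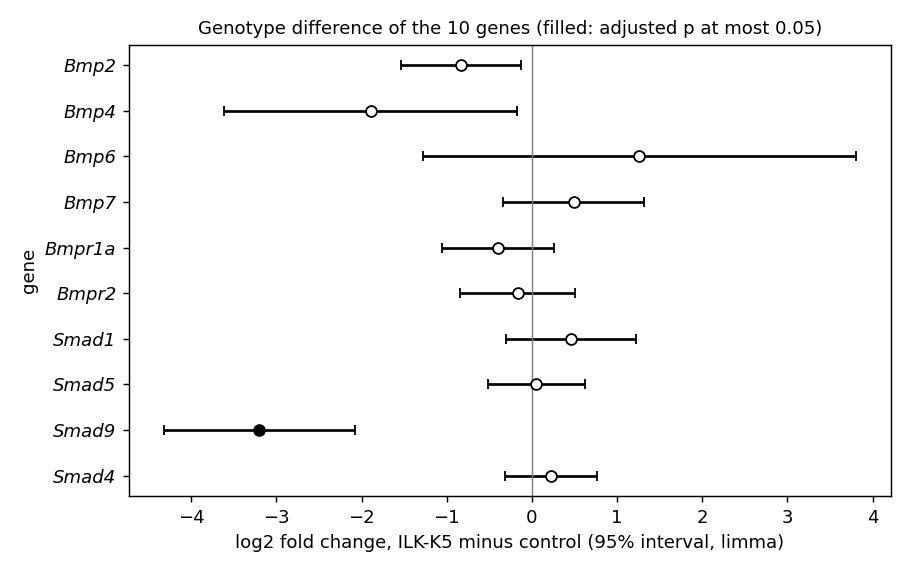
Log2 fold change, ILK-K5 minus control, of the 10 Bmp genes from limma, on the scale of the normalized count plus 1. Points are estimates, filled where the adjusted p was at most 0.05, and bars are 95% intervals. Smad9 lies at -3.20 with an interval of -4.32 to -2.08, while the intervals of Bmp6, Bmp7, Bmpr1a, Bmpr2, Smad1, Smad4 and Smad5 include 0.

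The 250 bases before the start of Smad9, the gene that fell, are shown with those before the most upstream listed start of Smad5, which did not pass the test, so that both can be read beside their values. Sequences are from RefSeq for GRCm38.p6 and run 5′ to 3′ on the plus strand, chr3:54755332-54755581 for Smad9 and chr13:56702760-56703009 for Smad5. Capitals mark GGCGCC, a GC-rich element to which Bmp-activated Smads are known to bind. It reads the same on both strands.
Smad9: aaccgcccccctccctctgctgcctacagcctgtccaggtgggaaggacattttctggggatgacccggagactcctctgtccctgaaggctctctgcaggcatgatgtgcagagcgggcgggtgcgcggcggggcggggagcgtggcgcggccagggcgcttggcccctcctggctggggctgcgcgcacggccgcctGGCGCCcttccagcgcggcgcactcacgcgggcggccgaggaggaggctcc
Smad5: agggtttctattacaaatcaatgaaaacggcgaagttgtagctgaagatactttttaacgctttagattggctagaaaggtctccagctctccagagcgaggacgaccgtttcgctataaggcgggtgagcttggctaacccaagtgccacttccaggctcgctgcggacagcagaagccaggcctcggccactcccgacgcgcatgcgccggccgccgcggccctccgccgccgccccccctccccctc
The Smad9 window held 1 GGCGCC, with its first base at position -51 from the start, and had a GC content of 73.2%. The Smad5 window held 0 and had a GC content of 60%, while of the 3 windows listed for Smad5, 1 held the motif. That window, chr13:56702802-56703051, overlaps the one shown and held the motif at position -19. Whether Smad5 has the motif thus depends on the start chosen. Over the 9 windows listed for the 7 members that were matched, 4 held GGCGCC, as did 9.59% of all 32851 promoters of the same length. These 4 were the windows of Smad9, Bmpr1a and Bmpr2 and 1 window of Smad5. Of these genes only Smad9 was called. The windows of Bmp4, Bmp6 and Smad1 held 0. The palindromic Smad motif GTCTAGAC was in 0 of the 9 and in 0.167% of all promoters. A match of these letters is a description and does not show binding.

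Read per length, Smad9 was the least abundant of the 3 Bmp receptor Smads in every library. It made up 19.8%, 18.4% and 13.4% of their summed FPKM in the controls and 2.53%, 0.811% and 2.87% in the ILK-K5 libraries. Its mean share was 17.2% ± 3.39 in control (SD, n = 3) and 2.07% ± 1.10 in ILK-K5 (SD, n = 3), lower in each ILK-K5 library than in any control library. Smad1 took 44.1%, 27.8% and 35.8% in the controls and 48.7%, 50.4% and 48.7% in ILK-K5. Because the shares add up to 100%, a lower share of Smad9 raises the others. With Smad9 left out, Smad1 made up 55.0%, 34.1% and 41.4% of Smad1 and Smad5 in the controls and 49.9%, 50.8% and 50.2% in ILK-K5, and these ranges overlapped. The share of Smad5 overlapped, with 46.9% ± 9.45 in control (SD, n = 3) and 48.7% ± 0.240 in ILK-K5 (SD, n = 3; exact permutation test, p = 1). The log2 ratio of Smad9 to Smad1 was -1.06 ± 0.42 in control and -4.77 ± 1.03 in ILK-K5 (SD, n = 3 each), and that of Smad9 to Smad5 was -1.45 ± 0.54 and -4.75 ± 1.01. For the share of Smad9 and for both ratios the exact permutation test gave p = 0.1, the smallest value that 3 against 3 libraries allow, or 0.129 adjusted over 9 tests. The summed level of the 3 genes was 29.4 ± 5.49 FPKM in control and 28.7 ± 4.01 in ILK-K5 (SD, n = 3 each; exact permutation test, p = 0.8).

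**Figure D3:**
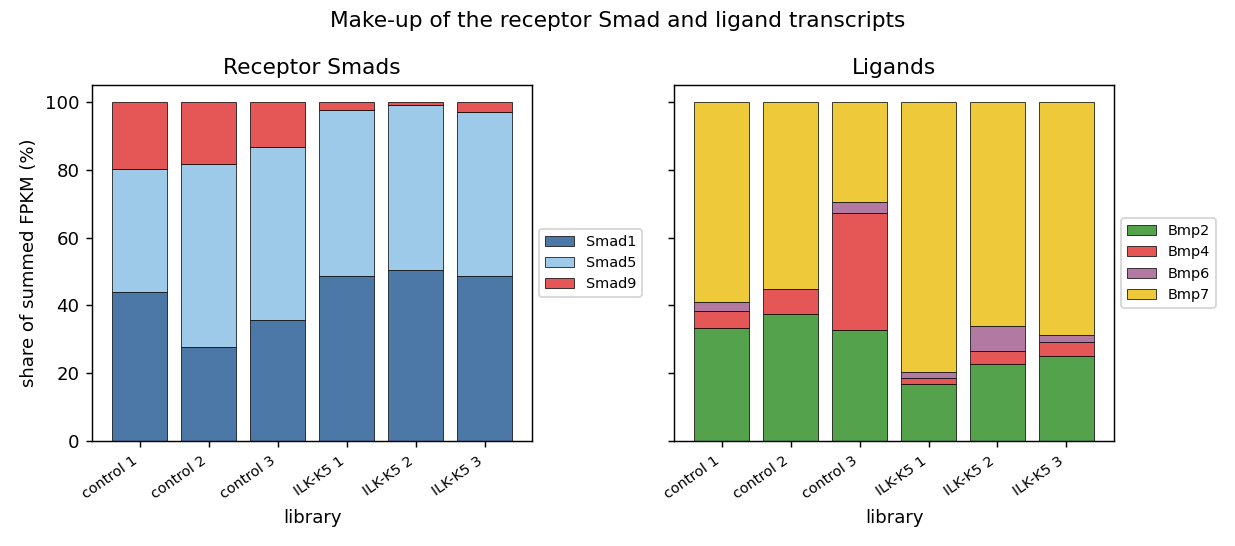
Shares, in percent of summed FPKM, of Smad1, Smad5 and Smad9 among the Bmp receptor Smads and of Bmp2, Bmp4, Bmp6 and Bmp7 among the 4 ligands. Each stacked bar is 1 library. The Smad9 segment is 13.4% to 19.8% in the controls and 0.811% to 2.87% in ILK-K5, and the Bmp7 segment is at least 66.0% in ILK-K5 and at most 59.0% in the controls.

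Smad4, the mediator shared by the Bmp and Tgf-β branches, had 433, 429 and 464 normalized counts in the controls and 517, 524 and 508 in the ILK-K5 libraries. Every ILK-K5 library was above every control library, and the libraries of a genotype lay close together. The means were 442 ± 19.4 (SD, n = 3) and 517 ± 8.0 (SD, n = 3). The log2 fold change was small, 0.22 (standard error 0.24, 95% interval -0.31 to 0.76), and did not pass the test (adjusted p = 0.838, limma). The standard error is larger than the spread of Smad4 itself because limma draws it towards that of genes of a like level. The receptor Smads of the Tgf-β branch, Smad2 and Smad3, had log2 fold changes of 0.19 (adjusted p = 0.901) and 0.18 (adjusted p = 0.916, limma).

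The patterns over the 6 libraries most like that of Smad9, among the 8507 tested genes averaging 100 or more normalized counts, were those of Cachd1 (Pearson's r = 0.997), Cc2d2a (r = 0.997) and Tgm5 (r = 0.994). These values are a description, since the 6 points of each gene come from the same libraries and from 2 genotypes. Tgm5, a transglutaminase of the epidermis, had 16029, 13716 and 10648 normalized counts in the controls and 1838, 1118 and 2708 in the ILK-K5 libraries. Like Smad9, it was lowest in ILK-K5 library 2 and highest in control library 1.

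Around the 10 genes, the rest of the pathway was read from lists of 53 further genes in the table, of which 36 were tested. Of these 36, 5 were called lower and 0 higher by limma, against 0.599% and 2.93% of all genes tested, and 13 had an unadjusted p under 0.05, against 12.3%. In edgeR 5 were lower and 0 higher, against 0.532% and 2.58% of all genes, and in DESeq2 8 were lower and 0 higher, against 1.26% and 3.7%. The median log2 fold change was -0.60, with 25 genes below 0 and 11 above, and 17 of the 36 did not overlap between the genotypes, against 17.9% of all genes tested.

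Among the other ligands, 2 of 10 were tested, and 0 were called by limma, edgeR or DESeq2 or had an unadjusted p under 0.05. Bmp3 had 6.75, 65.4 and 121.9 normalized counts in the controls and 7.97, 10.8 and 15.6 in the ILK-K5 libraries, an overlap through control library 1 (log2 fold change -1.72, adjusted p = 0.580). Without control library 1 limma called Bmp3 lower, as it did 98 of the 16368 genes tested. For Bmp8b the log2 fold change was -0.92 (adjusted p = 0.752, limma).

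Among 7 tested receptors and co-receptors, 0 were called by limma, 0 by edgeR and 1, the pseudoreceptor Bambi, by DESeq2 in the lower direction. An unadjusted p under 0.05 was reached by 3 of the 7, against 12.3% of all genes: Bambi, with a log2 fold change of -1.66, and, in the higher direction, the type I receptor Acvr1 with 1.001 and the co-receptor Eng (endoglin) with 1.66. The activin type II receptor Acvr2a, which can also bind Bmps, gave a log2 fold change of -0.59 (adjusted p = 0.580), and the co-receptor Rgma one of 0.16 (adjusted p = 0.936, limma). Bmpr1b, the other type I receptor closest to Bmpr1a, had 1.93 to 5.80 normalized counts in the controls and 2.28 to 9.26 in ILK-K5 and was below the filter. Of the 8 inhibitory Smads and Smad regulators, 0 were called by limma, edgeR or DESeq2, and 1, Skil, had an unadjusted p under 0.05. The most abundant were Tob1, with a log2 fold change of -0.45 (adjusted p = 0.764), and the corepressor Ski, with 0.35 (adjusted p = 0.763, limma).

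Bmp antagonists, which bind ligands outside the cell, and Bmp targets held all 5 called genes. Of 7 tested antagonists 3 were called lower, where 0.599% of all genes were, and the log2 fold change was below 0 for all 7, with a median of -0.62. Sostdc1 was at 6169, 7662 and 3621 normalized counts in the controls and at 755, 783 and 793 in the ILK-K5 libraries, without overlap (adjusted p = 0.00124, limma). Grem1, a gremlin family antagonist, was at 18355, 6801 and 4328 and at 707, 439 and 930, also without overlap (adjusted p = 0.00430, limma). Sostdc1 and Grem1 were called in each of the 19 alternatives. Fst, the activin and Bmp antagonist follistatin, had a log2 fold change of -1.83, which passed (adjusted p = 0.0208, limma), and was not called with replicates 2 and 3 alone or without control library 2, ILK-K5 library 1 or ILK-K5 library 2. Of 10 tested targets 2 were called lower by limma and 4 by DESeq2, where 0.599% and 1.26% of all genes were. The log2 fold change was below 0 for 9 of the 10, with a median of -1.08, and 7 of the 10 did not overlap, against 17.9% of all genes. Id2, an inhibitor of basic helix-loop-helix factors, fell by 1.68 in log2 units (adjusted p = 0.0444, limma) and Hey1, a repressor known as a Bmp and Notch target, by 2.88 (adjusted p = 0.0336, limma). Both calls were lost with a pseudocount of 0.1 and with replicates 2 and 3 alone. That of Id2 was also lost with the stricter filter, under which Hey1 could not be fitted, and with the FPKM table. Hey1 was lost without any 1 of the 6 libraries, and Id2 without any 1 except control library 3. Id3 had 2697, 1128 and 918 normalized counts in the controls and 404, 464 and 481 in the ILK-K5 libraries, without overlap, and missed the threshold in limma (log2 fold change -1.65, adjusted p = 0.0571) while DESeq2 called it (adjusted p = 0.00183). Id1 also lay lower in every ILK-K5 library (log2 fold change -1.06, adjusted p = 0.336, limma). Atoh8 was the other target called by DESeq2 (adjusted p = 0.0216). Id4 was the 1 target above 0, with a log2 fold change of 0.60 (adjusted p = 0.552, limma).

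**Figure D4:**
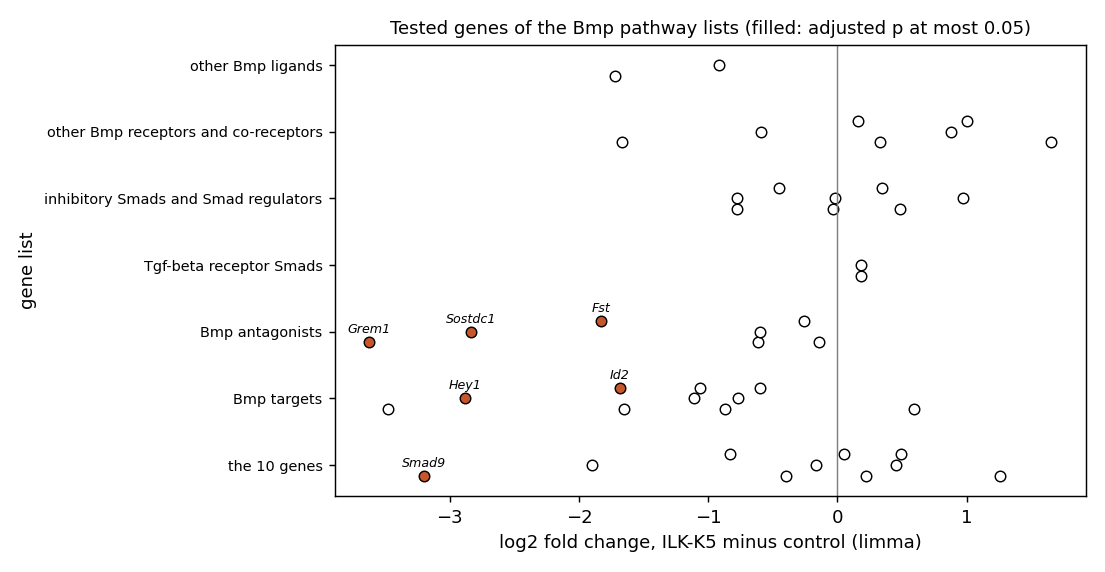
Log2 fold change, ILK-K5 minus control, from limma for the 10 Bmp genes and the 36 other tested pathway genes, grouped by role. Each point is 1 gene, and filled points passed an adjusted p of at most 0.05. Called genes are Smad9, 3 antagonists and 2 targets, all below 0.

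The macrophage and dendritic cell markers that were higher in ILK-K5 moved with genotype in the same libraries as Smad9, Bmp2 and Bmp4. Fibroblast markers summed to 703 to 782 normalized counts in the controls and 1560 to 2545 in ILK-K5, with 2 of 6 tested markers called higher. Beside this and the counts that follow, limma called 2.93% of all genes tested higher and 0.599% lower. DESeq2 called 3.7% higher and 1.26% lower, and 12.3% had an unadjusted p under 0.05 in limma. Dermal papilla markers summed to 144 to 624 and 397 to 778, with Sox2 at 0 in every library. Of the 4 tested, 1 was called higher by limma, and DESeq2 also called Hhip lower. Melanocyte markers summed to 680 to 1311 and 273 to 483. Most of this sum was Mitf, the 1 of 5 called lower by limma, while 3 of the 5 had a log2 fold change above 0, and DESeq2 called Tyrp1 higher. Bulge SC markers summed to 49003 to 110943 and 24741 to 51466. Krt15, the marker of this list with the highest mean FPKM, was not called. Of these 11 markers 1, Cd34, was called lower, 4 had a log2 fold change above 0, and the median was -0.10. Endothelial markers summed to 120 to 267 and 136 to 140, with 0 of 3 called by limma or edgeR, 1 lower by DESeq2 and 1 at an unadjusted p under 0.05. T cell markers summed to 158 to 187 and 309 to 406 with 1 of 6 called higher, and neutrophil markers to 31.9 to 50.2 and 217 to 294 with 2 of 4 called higher. The part of these cell types in the levels of the 10 genes was not tested. Scaling to basal keratinocyte markers cannot test it, because its factors overlapped between the genotypes and hardly changed the difference between them. They were 0.841 to 1.13 in the controls and 0.932 to 1.06 in ILK-K5. Under this scaling Smad9 was the 1 gene of the 10 that was called, in the lower direction, as were 0.544% of all genes tested.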

How the data were processed

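RNA from bulge SCs was amplified as cDNA (Ovation RNA-Seq System V2), made into libraries with Nextera XT and sequenced. According to the study's methods and the submitters' processing notes, adapters and ribosomal reads were removed and reads were aligned to GRCm38 with TopHat2 2.0.14 and Bowtie2 2.2.4. The program that counted reads per gene is not given in the sources used here, and a library without strand information cannot separate overlapping genes. The signal table deposited by the authors holds normalized counts, the reads of each gene over a size factor per library from DESeq2 1.6.3. In each library 100% of values were a whole number of steps of 1 size (tolerance 1e-06), so the reads were recovered. The FPKM values deposited by the authors equal the normalized count times 1 constant per gene. Tables of the authors' own comparison (fold changes, p-values) were not used.

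Genotypes were compared with limma 3.58.1 (trend, two-sided) in R 4.3.3, with a pseudocount of 1 added to normalized counts before taking log2, for 16368 genes with a mean of at least 10, with Benjamini-Hochberg adjustment at 0.05 over all of them. edgeR 4.0.16 and DESeq2 1.42.0 on recovered reads, other scalings, filters and pseudocounts, and fits without 1 library were alternatives. For genes with few reads, log2 fold changes on the scale of count plus 1 depend on the pseudocount and on single libraries at or near 0. Shares used exact permutation tests. Scripts were tested on simulated data. Symbols, found for 42107 of 43274 genes (97.3%), and positions came from GENCODE M21. Upstream sequences came from RefSeq, which matched 7 of the 10 members.

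The members and lists were chosen with earlier results of these data known. Named were all 10 members, every called gene and the 2 most abundant genes of each pathway list, marker sums and the 3 genes most like the member with the lowest adjusted p. Bmpr1b, Bambi, Acvr1, Eng, Skil, Id1, Id3, Atoh8, Tyrp1, Hhip, Cd207, Flt3, Krt6a, Krt6b, Timp3 and Fgf18 were named after their values were seen. Lists covered macrophages, T cells, neutrophils, Langerhans and dendritic cells, endothelial cells, fibroblasts, dermal papilla, melanocytes, basal, differentiated and inner bulge keratinocytes, bulge SCs and the cell cycle.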

Additional observations from a re-analysis of the deposited data

How the results depend on the processing

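Smad9 was called lower in all 19 alternatives. The count of the 10 Bmp genes called lower was 1 in each except DESeq2, with 2 (Bmp4 was added). Bmp4 and Bmp6 could not be fitted under the filter at 50 normalized counts, nor could Hey1 among the called pathway genes. Over all genes, 479 were higher and 98 lower, against 773 and 263 in DESeq2, 848 and 269 with a replicate block and 846 and 286 with a batch term for replicate 1 against 2 and 3, a grouping that the labels do not state. When single libraries were left out, 222 to 559 genes were higher and 32 to 98 lower. Of the other pathway genes 5 were lower, against 8 in DESeq2, with the replicate block and with the batch term, 3 with a pseudocount of 0.1 or a filter at 50, and 2 with replicates 2 and 3 alone, and 2 to 5 without single libraries (2 when control library 2 or ILK-K5 library 1 or 2 was dropped, 3 when ILK-K5 library 3 was). The cause was not tested.

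Values near 0 changed sign. The log2 fold change of Bmpr2 was 0.045 under quantile normalization, that of Smad5 lay between -0.019 and 0.17 and that of Bmp6 between -0.021 and 2.05 without single libraries. The difference in the share of Smad5 lay between -3.63 and 5.20 percentage points and that of Bmp6 between -0.066 and 2.72. The median log2 fold change of all genes was -0.17 in DESeq2 and -0.10 in limma without a filter. DESeq2 was also run without the filter, so the 2 changes are not set apart there. It was -0.04 in edgeR, which used the filter.

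Whether the replicate numbers pair the libraries cannot be told from 3 libraries of each genotype. With a replicate block more genes were called, 848 higher and 269 lower against 479 and 98. The correlations of deviations from the genotype means were 0.53, 0.020 and 0.31 for numbers 1 to 3, and not every library correlated best with its own number. The replicate block changed no call among the 10 Bmp genes. Bmp6, with 0 to 32 reads in a library, was the least deeply counted of the 10. The share of Smad1 without Smad9 was added after seeing the data, and the difference was then 6.84 percentage points, against 13.4.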

Other observations

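Inner bulge keratinocyte markers summed to 2043 to 3661 normalized counts in the control and 6453 to 8004 in the ILK-K5 libraries. Of 5 markers, limma called 3 higher and 1 lower, where 2.93% and 0.599% of all genes tested were. Krt6a, Krt6b and Timp3 were higher, and Fgf18 was lower with a log2 fold change of -5.41. In edgeR 2 were higher and 1 lower, against 2.58% and 0.532% of all genes. Cell cycle markers summed to 3913 to 9386 and 4185 to 7414, with 0 of 8 called by limma, edgeR or DESeq2 and 0 at an unadjusted p under 0.05.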
